A study of Rattus norvegicus with 12 samples.

Results

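The genes described here are 35 cell cycle genes, measured among the 17339 gene symbols of a 12-library table from rat cortical neuron cultures. They were chosen by name, as 36 genes of DNA replication and mitosis, of which Cenpe was not analysed here. Where a symbol had several entries the one with the highest mean was taken. Kif2c alone had several, 3 in all, with similar values, so reads shared between its transcripts cannot be assigned. Of the 35 genes, 22 act in G2 and mitosis, 10 in replication, and 3 are cyclins of G1 and the G1/S transition. All 35 passed the filter on low values, as did 12073 genes in all. The levels themselves show that these cultures, labelled as cortical neurons, held transcripts of the dividing cell cycle in every library. Markers of neurons, astrocytes, neural progenitors and oligodendrocyte precursors were also present in every library.

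The study asked how silencing of firing, and loss of Ehmt1, an enzyme that methylates histone H3 and is mutated in Kleefstra syndrome, alter transcription. Cultures came from the brains of Wistar rats at E18 and formed 4 groups with 3 libraries each. The groups were Ehmt1 shRNA knockdown with tetrodotoxin (TTX), Ehmt1 shRNA knockdown untreated, wild-type with TTX, and wild-type untreated. TTX blocks sodium channels and so stops action potentials. No control hairpin is named in the labels, so hairpin delivery and loss of Ehmt1 cannot be told apart, and the dose and duration of TTX are not given in the sources used here. Ehmt1 (NM_001108572), the targeted gene, had 1187, 1519 and 1162 read equivalents with TTX and 1044, 1535 and 1037 untreated in knockdown, against 2039, 1739 and 1839 with TTX and 1772, 1586 and 1599 untreated in wild-type libraries. The highest knockdown library was thus below the lowest wild-type library.

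A read equivalent is the coverage added by a single read of 42 nt, after division by the authors' size factor for the library. Before that division the libraries held 15108848 to 24787516 read equivalents. Both libraries of wild-type culture 3 stood apart from the rest in 62 genes, of which Aurkb alone belongs to the 35. Several results are given with and without these libraries. Levels were not divided by transcript length, so they are compared between libraries and never between genes. Within a genotype, TTX and untreated libraries of the same number deviated together, and each such pair is called a culture. That a pair shared a culture, and not for example a sequencing lane, is inferred and not stated in the labels. Triplets of values below are in the order of cultures 1, 2 and 3, so pairs can be read across a sentence. Adjusted p-values come from limma over all 12073 genes, either with the 4 groups alone or with each culture as a further term, called paired limma here. The log2 change is the same in both, and only its error differs.

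A dividing cell licenses its replication origins in G1 by loading the MCM helicase, copies its DNA in S phase behind the sliding clamp PCNA, and separates the copies on a spindle in mitosis. Cyclins switch the cyclin-dependent kinases on in turn, D and E cyclins before S phase, and A and B cyclins through G2 and mitosis. Postmitotic neurons have left this cycle, while progenitors, astrocytes and oligodendrocyte precursors can still divide. Genes of replication are known E2F targets, peaking at G1/S. Genes of mitosis peak later and are bound by the DREAM and FOXM1 complexes, often at a cell cycle homology region (CHR) beside CCAAT boxes.

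The promoter windows of mitosis and replication genes differed in CHR and E2F motifs and held CCAAT at similar shares. RefSeq windows on the GRCr8 build, from 250 bases before to 50 after the annotated start, were on hand for 28 of the 35 genes. The CHR letters TTTGAA stood, on either strand, in 13 of 19 G2 and mitosis windows (68.4%), in 1 of 8 replication windows (12.5%) and in 18.3% of all 33469 windows. An E2F motif (TTTGGCGC, TTTGCCGC, TTTCGCGC or TTTCCCGC, either strand) stood in 1 of 19 G2 and mitosis windows (5.26%), in 6 of 8 replication windows (75.0%) and in 2.14% of all windows. CCAAT stood in 15 of 19 (78.9%), 6 of 8 (75.0%) and 37.5%. Both CHR and CCAAT were held by 12 of 19 G2 and mitosis windows (63.2%), by 0 of 8 replication windows and by 7.41% of all windows. Motifs of different kinds were counted separately, overlap included. The Cdk1 window alone in its class held an E2F motif, and the Mcm2 window alone in its class held CHR letters. The windows below belong to the 3 genes of each class with the smallest p for TTX in paired limma among those with a window. They are printed 5′ to 3′ on the gene's strand, with all 3 kinds of motif in capitals, so that the layouts can be compared.
Prc1 (chr1:143659231-143659530, + strand): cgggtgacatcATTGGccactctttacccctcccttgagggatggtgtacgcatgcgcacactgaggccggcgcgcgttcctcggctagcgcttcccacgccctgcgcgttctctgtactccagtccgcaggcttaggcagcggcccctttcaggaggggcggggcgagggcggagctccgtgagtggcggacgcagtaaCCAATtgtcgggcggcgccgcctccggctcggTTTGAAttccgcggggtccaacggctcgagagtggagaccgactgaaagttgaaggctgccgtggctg
Bub1b (chr3:126016817-126017116, + strand): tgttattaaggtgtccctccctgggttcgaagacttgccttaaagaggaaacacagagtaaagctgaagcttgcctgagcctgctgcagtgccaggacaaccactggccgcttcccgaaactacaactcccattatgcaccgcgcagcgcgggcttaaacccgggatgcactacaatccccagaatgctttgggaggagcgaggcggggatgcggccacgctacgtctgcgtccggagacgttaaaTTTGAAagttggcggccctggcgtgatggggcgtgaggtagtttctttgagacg
Kif11 (chr1:244536617-244536916, + strand): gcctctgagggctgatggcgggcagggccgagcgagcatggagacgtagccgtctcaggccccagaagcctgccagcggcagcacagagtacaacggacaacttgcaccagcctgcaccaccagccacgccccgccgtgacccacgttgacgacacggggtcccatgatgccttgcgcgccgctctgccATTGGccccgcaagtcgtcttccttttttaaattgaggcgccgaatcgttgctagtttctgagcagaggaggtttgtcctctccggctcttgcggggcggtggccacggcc
Mcm3 (chr9:30733697-30733996, - strand): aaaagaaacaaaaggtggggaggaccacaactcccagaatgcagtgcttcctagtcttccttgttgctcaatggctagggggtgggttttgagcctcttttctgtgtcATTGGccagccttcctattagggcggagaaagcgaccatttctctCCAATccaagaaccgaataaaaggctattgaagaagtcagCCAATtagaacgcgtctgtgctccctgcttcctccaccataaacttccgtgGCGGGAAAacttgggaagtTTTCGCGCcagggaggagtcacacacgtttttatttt
Mcm2 (chr4:122918045-122918344, - strand): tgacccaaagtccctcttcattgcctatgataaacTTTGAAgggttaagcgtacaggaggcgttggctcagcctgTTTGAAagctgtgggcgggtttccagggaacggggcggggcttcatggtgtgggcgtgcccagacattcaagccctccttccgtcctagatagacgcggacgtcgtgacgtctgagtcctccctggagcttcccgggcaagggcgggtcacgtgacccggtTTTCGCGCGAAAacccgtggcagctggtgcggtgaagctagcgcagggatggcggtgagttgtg
Rrm1 (chr1:166235654-166235953, + strand): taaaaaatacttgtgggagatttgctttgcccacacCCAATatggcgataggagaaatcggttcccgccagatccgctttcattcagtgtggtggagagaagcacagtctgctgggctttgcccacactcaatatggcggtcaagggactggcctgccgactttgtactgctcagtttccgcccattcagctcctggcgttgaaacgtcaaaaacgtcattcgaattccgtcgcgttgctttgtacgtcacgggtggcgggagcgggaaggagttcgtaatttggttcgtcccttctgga
In Prc1 the CHR letters begin at position -18 and CCAAT letters at -50 and, on the opposite strand, at -239, counted from the start site at 1. Bub1b has the CHR letters across its start, from -4, and no CCAAT. Kif11 has neither CHR nor E2F letters, only CCAAT on the opposite strand, at -61. Mcm3 has E2F letters on both sides of its start, at -6 and 14, and 3 CCAAT matches upstream. Mcm2 has overlapping E2F matches at -14 and -10, and CHR letters at -215 and -175. Rrm1 holds only a CCAAT at -214. A match is a description of letters, and binding was not measured in these data.

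Levels of most mitosis and replication genes moved together from library to library. Among the G1 cyclins, Ccnd1 was highest in the second untreated wild-type library and Ccne1 in the first. The third knockdown TTX library held the highest level of 27 of the 35 genes, 17 of them of mitosis. The second untreated wild-type library held the lowest level of 20, 16 of them of mitosis. Averaged over the 22 mitosis genes, the log2 level relative to each gene's mean over 12 libraries was 0.11, 0.21 and 0.51 in knockdown TTX libraries, against -0.43, -0.125 and -0.0018 in knockdown untreated libraries. In wild-type it was 0.02, -0.23 and 0.57 with TTX, against -0.23, -0.64 and 0.23 untreated. Aurkb enters these averages and raised both of wild-type culture 3, where it stood at 3.50 with TTX and 2.95 untreated. Averages without Aurkb were not computed. For the 10 replication genes the averages were 0.16, 0.11 and 0.43 with TTX, against -0.20, -0.19 and 0.14 untreated, in knockdown. In wild-type libraries the replication average was 0.0008, -0.02 and 0.14 with TTX, against -0.16, -0.33 and -0.10 untreated. In every culture the TTX library lay above its untreated partner for both classes, while cultures differed among themselves by as much or more. The fold between the highest and lowest untreated culture was larger than the TTX fold for 24 of 35 genes in knockdown and for 30 of 35 in wild-type. The median range of untreated cultures was 1.37-fold in knockdown and 1.497-fold in wild-type, beside median TTX folds of 1.35 and 1.23. Among mitosis genes the wild-type range had a median of 1.62-fold, and among replication genes of 1.23-fold.

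**Figure D1:**
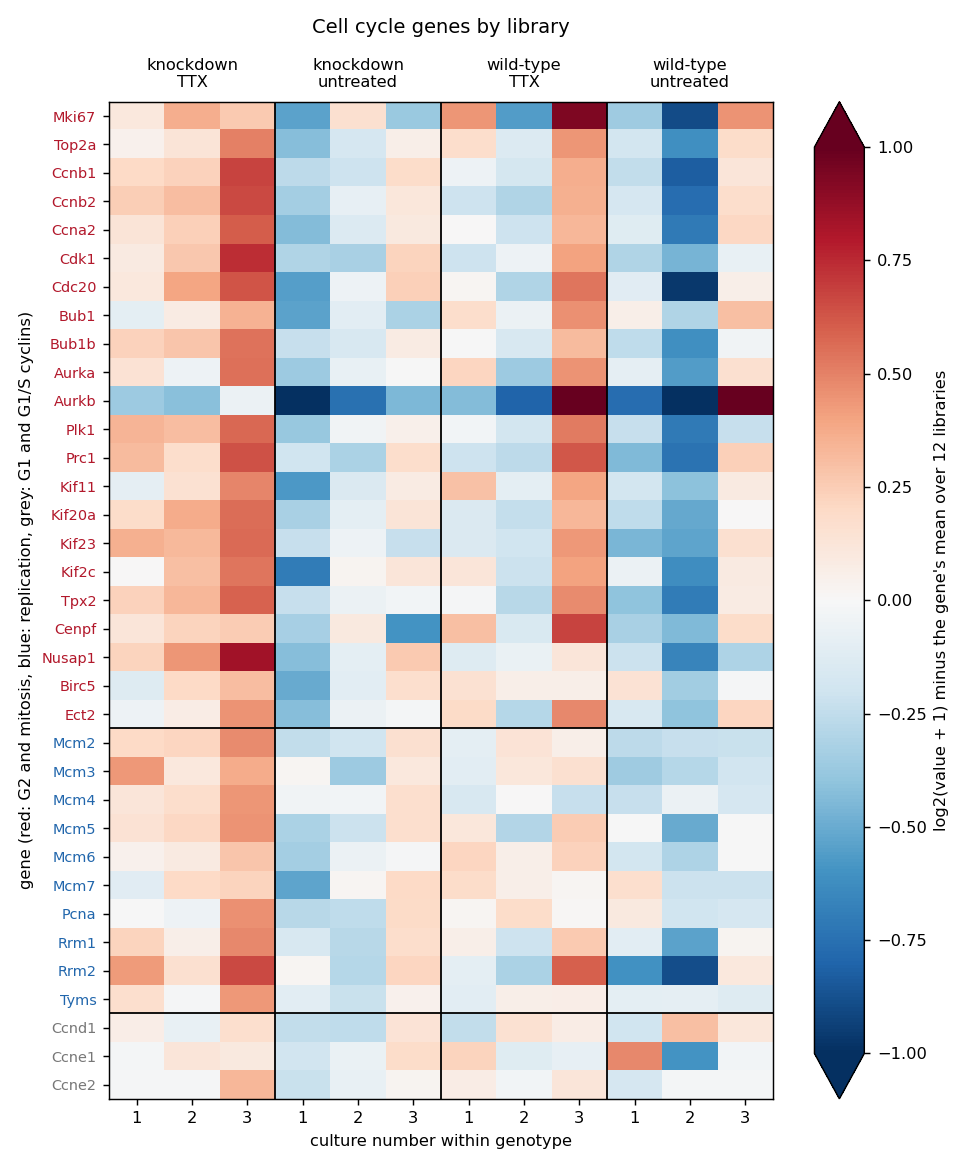
Log2(read equivalents + 1) of the 35 genes (rows, by class) in the 12 libraries (columns, 3 cultures per group), minus each gene's mean over the libraries; colour runs from blue (lower) to red (higher) and stops at -1 and 1. TTX columns are redder than the untreated columns of the same genotype and culture number for most genes, and Aurkb is above the scale in both libraries of wild-type culture 3.

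With TTX all 35 genes had a positive log2 change over both genotypes, with a median of 0.36, against 0.02 over all genes tested, of which 55.5% were positive. In paired limma 26 of the 35 rose, while 5.47% of all genes were called higher and 13.0% were called in either direction. These 26 were 20 of 22 mitosis genes, 6 of 10 replication genes and 0 of 3 G1 cyclins. With groups alone limma called 0 of the 35, against 0.199% of all genes, and the lowest adjusted p was 0.231. At an unadjusted p under 0.05 groups alone had 15 of the 35, against 9.87% of all genes. Without any culture term the spread between cultures counts as error, and paired limma removes it. Culture as a random block gave 27, against 7.31% of all genes. The paired count fell to 1 without knockdown culture 1, to 6 without knockdown culture 3 and to 9 without wild-type culture 3, where 20 to 25 were called without any 1 of the other cultures. Calls over all genes, 1570 with every culture, fell as well, to 140, 376 and 551 in those fits in turn. With 1 of the other cultures left out, 787 to 1553 of all genes were called. The levels of 28 of the 35 genes were higher with TTX in 6 of 6 cultures, which held for 11.8% of all genes. They were 21 of 22 mitosis genes, 7 of 10 replication genes and 0 of 3 G1 cyclins. In bulk RNA, a change in the number of dividing cells and a change in these transcripts per cell cannot be told apart.

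The kinase that drives entry into mitosis and its cyclins rose together. Cdk1 (NM_019296), that kinase, had 899, 1022 and 1411 with TTX, against 686, 676 and 988 untreated, in knockdown cultures, and 732, 819 and 1121 with TTX, against 689, 613 and 804 untreated, in wild-type cultures. Each TTX library exceeded its untreated partner, and the groups overlapped in both genotypes. The mean rise of Cdk1 was 1.33-fold (log2 0.41, SE 0.07, adjusted p = 0.0167 in paired limma). With groups alone its adjusted p was 0.427. For the cell cycle genes described one by one, SE and adjusted p came from paired limma unless another fit is named. With groups alone the lowest adjusted p among them was 0.231. In paired limma only Rrm2 stayed under 0.05 whichever culture was left out, at up to 0.0407. Ccnb1 (NM_171991), the B cyclin that activates it, had 1008, 1029 and 1402 with TTX, against 731, 758 and 994 untreated, in knockdown cultures, and 846, 776 and 1127 with TTX, against 737, 495 and 953 untreated, in wild-type cultures. The knockdown groups did not overlap and the wild-type groups did, and Ccnb1 rose 1.33-fold (log2 0.41, SE 0.07, adjusted p = 0.0182). Ccnb2 (NM_001009470), the second B cyclin, had 693, 722 and 923 with TTX, against 462, 553 and 632 untreated, in knockdown cultures, and 506, 473 and 749 with TTX, against 521, 343 and 658 untreated, in wild-type cultures. It rose 1.28-fold (log2 0.35, SE 0.07, adjusted p = 0.0339) although wild-type culture 1 was slightly lower with TTX, at 506 against 521. Ccna2 (NM_053702), the A cyclin of S and G2 phase, had 772, 829.9 and 1073 with TTX, against 521, 640.3 and 754 untreated, in knockdown cultures, and 706, 611 and 889.9 with TTX, against 646, 432 and 812 untreated, in wild-type cultures. Ccna2 rose 1.29-fold (log2 0.37, SE 0.07, adjusted p = 0.0228), with knockdown groups that did not overlap.

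General markers of dividing cells followed. Mki67 (NM_001271366), which coats mitotic chromosomes and is used as a stain for cycling cells, had 3181, 3801 and 3551 with TTX, against 2039, 3300.5 and 2288 untreated, in knockdown cultures, and 4026, 2004 and 5639 with TTX, against 2311, 1587 and 4037 untreated, in wild-type cultures. Its wild-type cultures lay far apart, with both libraries of culture 3 above both of culture 2, yet each TTX library exceeded its partner and Mki67 rose 1.43-fold (log2 0.52, SE 0.09, adjusted p = 0.019). Top2a (NM_022183), the topoisomerase that untangles sister chromatids, had 3229, 3440.4 and 4453 with TTX, against 2332, 2789.7 and 3263 untreated, in knockdown cultures, and 3549, 2862 and 4258 with TTX, against 2763, 2052 and 3571 untreated, in wild-type cultures. Its groups overlapped in both genotypes and it rose 1.31-fold (log2 0.39, SE 0.05, adjusted p = 0.0114).

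Genes of the spindle checkpoint, which holds anaphase until chromosomes are attached, rose as well. Cdc20 (NM_171993), the activator of the anaphase-promoting complex, had 749, 915 and 1079 with TTX, against 474, 672 and 823 untreated, in knockdown cultures, and 704, 564 and 1009.9 with TTX, against 643, 355 and 725 untreated, in wild-type cultures. It rose 1.38-fold (log2 0.46, SE 0.08, adjusted p = 0.02), and its lowest library was the untreated wild-type culture 2. Bub1b (NM_138540), a checkpoint protein at kinetochores, had 762, 785 and 943 with TTX, against 553, 580.0 and 687 untreated, in knockdown cultures, and 644, 579 and 808 with TTX, against 544, 422 and 632 untreated, in wild-type cultures. Bub1b rose 1.32-fold (log2 0.40, SE 0.05, adjusted p = 0.00894) with little difference between cultures in the size of the change, 0.24 to 0.46 on the log2 scale. Bub1 (NM_001106507), a checkpoint kinase, had 537, 608 and 733 with TTX, against 397, 534 and 461 untreated, in knockdown cultures, and 649, 552 and 791 with TTX, against 599, 467 and 709 untreated, in wild-type cultures. Bub1 rose 1.23-fold (log2 0.30, SE 0.07, adjusted p = 0.0423). Cenpf (NM_001100827), a kinetochore protein, had 1779, 1901 and 1946 with TTX, against 1299, 1746 and 1076 untreated, in knockdown cultures, and 2013, 1467 and 2606 with TTX, against 1304, 1199.6 and 1858 untreated, in wild-type cultures. Its change ranged widely, from 0.12 in knockdown culture 2 to 0.85 in knockdown culture 3, with a mean rise of 1.39-fold (log2 0.47, SE 0.10, adjusted p = 0.035).

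Among mitotic kinases Plk1 (NM_017100), the polo-like kinase of spindle poles and kinetochores, had 475, 467 and 561 with TTX, against 289, 367 and 389 untreated, in knockdown cultures, and 369, 331 and 539.6 with TTX, against 321, 230.4 and 320.2 untreated, in wild-type cultures. The TTX and untreated groups of Plk1 did not overlap in either genotype, and it rose 1.42-fold (log2 0.51, SE 0.09, adjusted p = 0.0182). Aurkb (NM_053749), the kinase of the chromosomal passenger complex, had 638, 616 and 789 with TTX, against 377, 489 and 603 untreated, in knockdown cultures, and 609.7, 472 and 9336 with TTX, against 486, 333 and 6372 untreated, in wild-type cultures. It rose 1.39-fold (log2 0.48, SE 0.07, adjusted p = 0.0139) in paired limma, where each culture is its own reference, and had an adjusted p of 0.375 with culture as a random block. Both libraries of wild-type culture 3 stood apart for this gene and are described further on. Aurka, the spindle pole kinase, and Birc5, the passenger subunit survivin, did not pass. Aurka ranged from 342 to 519 with TTX, against 274 to 352 untreated, in knockdown, and from 274 to 484 with TTX, against 240.1 to 394 untreated, in wild-type. Its log2 change was 0.31 (SE 0.08, adjusted p = 0.0519), and with culture as a random block its adjusted p was 0.0397. Birc5 had 295, 372 and 402 with TTX, against 228, 301 and 363 untreated, in knockdown cultures, and 359.5, 338 and 337 with TTX, against 358, 254 and 321 untreated, in wild-type cultures. Its log2 change was 0.22 (SE 0.07, adjusted p = 0.0922).

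Spindle motors and microtubule proteins rose in the same way. Tpx2 (NM_001107790), which nucleates spindle microtubules and activates Aurora A, had 1118, 1205 and 1436 with TTX, against 816, 918 and 938 untreated, in knockdown cultures, and 946, 789 and 1325 with TTX, against 723, 587 and 1014 untreated, in wild-type cultures. Tpx2 rose 1.36-fold (log2 0.44, SE 0.05, adjusted p = 0.0078). Prc1 (NM_001107529), which cross-links microtubules of the spindle midzone, had 1864, 1685 and 2318 with TTX, against 1304, 1199 and 1688 untreated, in knockdown cultures, and 1294, 1246 and 2294 with TTX, against 1102, 895 and 1762 untreated, in wild-type cultures. Prc1 rose 1.34-fold (log2 0.43, SE 0.05, adjusted p = 0.00889), and its untreated wild-type libraries alone spanned 895 to 1762, a wider range than the TTX change. Kif11 (NM_001169112), the motor that pushes spindle poles apart, had 1149, 1356 and 1709 with TTX, against 820.1, 1106 and 1295 untreated, in knockdown cultures, and 1496, 1143 and 1605 with TTX, against 1074, 919 and 1302 untreated, in wild-type cultures. Kif11 rose 1.30-fold (log2 0.38, SE 0.05, adjusted p = 0.0114). Nusap1 (NM_001107762), a microtubule bundling protein, had 969, 1125 and 1487 with TTX, against 617, 774 and 995 untreated, in knockdown cultures, and 759, 792 and 901 with TTX, against 713, 525 and 668 untreated, in wild-type cultures. Nusap1 rose 1.39-fold (log2 0.48, SE 0.07, adjusted p = 0.0139), and its wild-type groups did not overlap. Kif2c (NM_001085369), a kinesin that shortens microtubules, had 432, 529.6 and 623 with TTX, against 265, 438 and 467 untreated, in knockdown cultures, and 469, 371 and 570.1 with TTX, against 412, 279 and 457 untreated, in wild-type cultures. Kif2c rose 1.31-fold (log2 0.39, SE 0.07, adjusted p = 0.0218).

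Cytokinesis genes, which split the daughter cells, had similar changes. Kif23 (NM_001108155), a midzone kinesin of the centralspindlin complex, had 708, 692 and 818 with TTX, against 472, 533 and 472 untreated, in knockdown cultures, and 501, 482 and 746 with TTX, against 404, 384 and 618 untreated, in wild-type cultures. Kif23 rose 1.36-fold (log2 0.44, SE 0.06, adjusted p = 0.0121), and its knockdown groups did not overlap. Kif20a (NM_001108426), another midzone kinesin, had 1167, 1331 and 1516 with TTX, against 820.3, 961 and 1123 untreated, in knockdown cultures, and 929, 870.1 and 1297 with TTX, against 862, 720.1 and 1031 untreated, in wild-type cultures. Kif20a rose 1.28-fold (log2 0.35, SE 0.05, adjusted p = 0.0119). Ect2 (NM_001108547), the exchange factor that activates RhoA at the cleavage furrow, had 622, 679.7 and 883 with TTX, against 480.0, 619 and 636 untreated, in knockdown cultures, and 738, 530.2 and 903 with TTX, against 577, 488 and 748 untreated, in wild-type cultures. Ect2 rose 1.22-fold (log2 0.29, SE 0.06, adjusted p = 0.0376), one of the smaller changes of its class.

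In replication the gene with the smallest adjusted p of all 35 was Rrm2 (NM_001025740), the regulated subunit of ribonucleotide reductase, which makes deoxynucleotides. Rrm2 had 2083, 1732 and 2442 with TTX, against 1573, 1273 and 1799.6 untreated, in knockdown cultures, and 1446, 1240.5 and 2345 with TTX, against 1019, 838 and 1668 untreated, in wild-type cultures. Its log2 change lay between 0.40 and 0.57 in every culture, and Rrm2 rose 1.39-fold (log2 0.47, SE 0.04, adjusted p = 0.00495). Over the alternatives tried for Rrm2, the adjusted p ran from 0.00495 to 0.823. The partner subunit Rrm1 (NM_001013236) had 2769.6, 2479.7 and 3325 with TTX, against 2133, 1965 and 2688 untreated, in knockdown cultures, and 2473, 2059 and 2859 with TTX, against 2210.4, 1639 and 2428 untreated, in wild-type cultures. Rrm1 rose 1.22-fold (log2 0.29, SE 0.05, adjusted p = 0.0155). Tyms, which makes thymidylate, ranged from 786 to 1071 with TTX, against 680.1 to 814 untreated, in knockdown, and from 737 to 828 with TTX, against 725 to 744 untreated, in wild-type. Its change of 0.20 (SE 0.05) had an adjusted p of 0.0549 in paired limma and 0.0227 with culture as a random block.

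The MCM helicase is a ring of 6 different subunits that unwinds DNA at the fork, and 4 of the 6 passed. Mcm2 (NM_001107873) had 1119, 1133 and 1352 with TTX, against 823, 849 and 1088 untreated, in knockdown cultures, and 908, 1072 and 1016 with TTX, against 814, 832 and 834 untreated, in wild-type cultures. Its groups did not overlap in either genotype, and Mcm2 rose 1.26-fold (log2 0.33, SE 0.05, adjusted p = 0.0139). Mcm3 (NM_001191805) had 770.2, 614 and 740.0 with TTX, against 580.0, 445 and 615 untreated, in knockdown cultures, and 529.7, 617 and 637 with TTX, against 447, 468 and 499.9 untreated, in wild-type cultures. Mcm3 rose 1.28-fold (log2 0.36, SE 0.05, adjusted p = 0.0121). Mcm6 (NM_017287) had 1398, 1439 and 1638 with TTX, against 1069, 1299 and 1344 untreated, in knockdown cultures, and 1570.4, 1407 and 1587 with TTX, against 1193, 1090.1 and 1348 untreated, in wild-type cultures. The groups of Mcm6 did not overlap in either genotype, and it rose 1.23-fold (log2 0.30, SE 0.05, adjusted p = 0.0199). Mcm5 (NM_001106170) had 849, 886 and 1048 with TTX, against 617, 663 and 865 untreated, in knockdown cultures, and 832, 627 and 918 with TTX, against 766, 543 and 769 untreated, in wild-type cultures. Mcm5 rose 1.22-fold (log2 0.29, SE 0.05, adjusted p = 0.0182). Mcm4 (NM_033651) had 1021, 1063 and 1278 with TTX, against 917, 921 and 1054 untreated, in knockdown cultures, and 840.4, 944 and 803 with TTX, against 800.0, 905 and 839 untreated, in wild-type cultures. Mcm4 did not pass, with a log2 change of 0.12 (SE 0.05, adjusted p = 0.15), and wild-type culture 3 was lower with TTX. Mcm7 did not pass either (log2 0.19, SE 0.07, adjusted p = 0.126), with levels of 1406 to 1781 with TTX, against 1054 to 1751 untreated, in knockdown, and 1541 to 1727 with TTX, against 1311 to 1714 untreated, in wild-type. Pcna (NM_022381), the sliding clamp, had 2623, 2537 and 3615 with TTX, against 2167, 2202 and 2998 untreated, in knockdown cultures, and 2661, 2994 and 2655 with TTX, against 2817, 2285 and 2335 untreated, in wild-type cultures. Wild-type culture 1 was lower with TTX and Pcna did not pass (log2 0.21, SE 0.07, adjusted p = 0.101).

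None of the 3 cyclins of G1 and G1/S passed, and 0 of the 3 were higher with TTX in 6 of 6 cultures. Ccnd1 (NM_171992), the D cyclin that partners Cdk4 and Cdk6, had 2079, 1886 and 2232 with TTX, against 1676, 1664 and 2179 untreated, in knockdown cultures, and 1675, 2208 and 2089.7 with TTX, against 1727, 2441 and 2147 untreated, in wild-type cultures. It was higher with TTX in each knockdown culture and lower in each wild-type culture. Such an opposition of genotypes, in either direction, was seen in 1.53% of all genes. The mean log2 change of Ccnd1 was 0.05 (SE 0.05, adjusted p = 0.57). Ccne1 (NM_001100821), an E cyclin that activates Cdk2, had 371, 409 and 403 with TTX, against 330.3, 359 and 429 untreated, in knockdown cultures, and 439, 346 and 355 with TTX, against 526, 248 and 369 untreated, in wild-type cultures. Its wild-type cultures 1 and 2 changed in opposite directions, and the mean was 0.07 (SE 0.10, adjusted p = 0.672). Ccne2 (NM_001108656), the other E cyclin, had 638, 638 and 812 with TTX, against 550.0, 610.1 and 654 untreated, in knockdown cultures, and 679, 631 and 699 with TTX, against 573, 635 and 636 untreated, in wild-type cultures. The mean log2 change of Ccne2 was 0.16 (SE 0.06, adjusted p = 0.122).

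**Figure D2:**
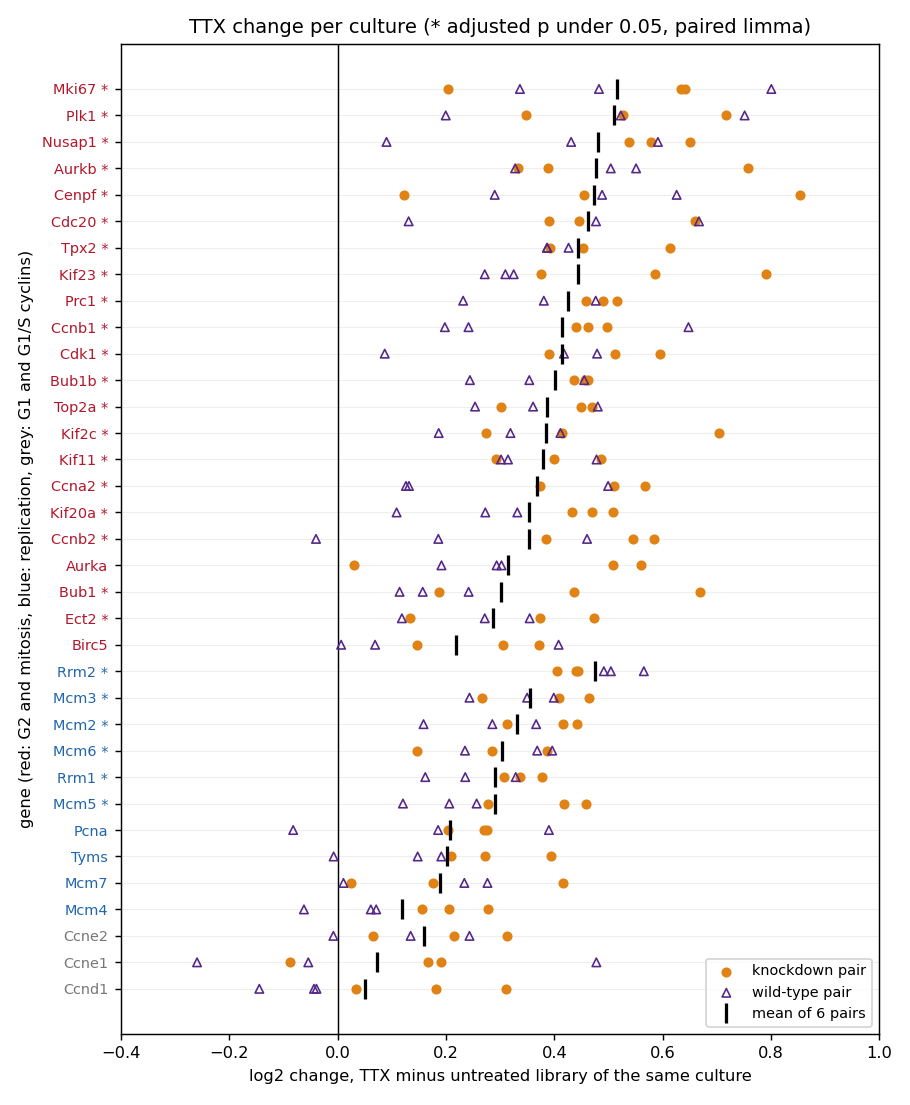
Log2 change of each gene (rows, by class and size) between the TTX and the untreated library of each culture, with filled circles for the 3 knockdown cultures, open triangles for the 3 wild-type cultures and a bar for the mean of 6. Nearly all mitosis and replication points lie right of 0, while the 3 G1 and G1/S cyclins spread over both sides; asterisks mark the 26 genes called in paired limma.

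Replication genes changed by less than mitosis genes on average. The median log2 change over both genotypes was 0.29 (0.12 to 0.47) for replication and 0.41 (0.22 to 0.52) for mitosis, against 0.07 (0.05 to 0.16) for the 3 G1 cyclins. Other G1 cyclins are not among these 3, namely Ccnd2 (0.31 in wild-type, 0.26 in knockdown) and Ccnd3 (0.30 and 0.15). Mitosis exceeded replication in each of the 6 cultures. In knockdown cultures 1, 2 and 3 the median change of mitosis genes minus that of replication genes was 0.11, 0.09 and 0.22, and in wild-type cultures it was 0.08, 0.07 and 0.09. The classes overlapped, since Rrm2 (0.47) exceeded the mitosis median and Birc5 (0.22) lay below the replication median. No test was made of this difference, as the genes were chosen with results known. The difference over both genotypes was -0.12 for replication minus mitosis, and -0.12 without wild-type culture 3. In wild-type alone the difference was -0.14, with or without both libraries of culture 3. Leaving out a single wild-type library, which breaks its pair and lets the level of its culture enter, moved it between -0.21 and 0.03, the highest value being that without the third TTX library.

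**Figure D3:**
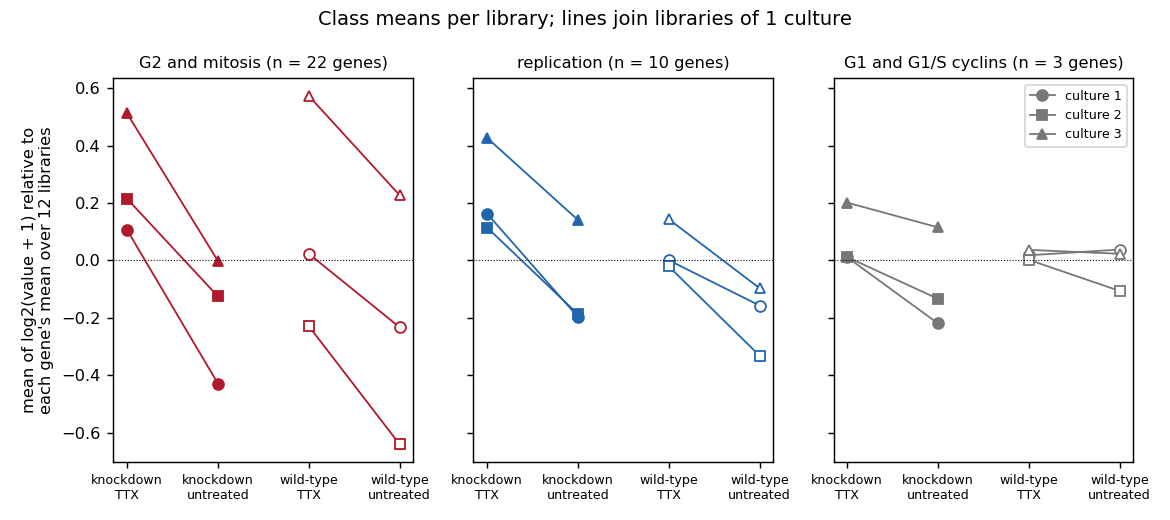
Mean log2 level of each class relative to each gene's mean over 12 libraries, by library, with lines joining TTX and untreated libraries of a culture (filled, knockdown; open, wild-type). Every mitosis and replication line falls to the right, while cultures start at different heights, from -0.23 to 0.57 among TTX libraries for mitosis.

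Within knockdown cultures the median change with TTX was 0.43 (all genes 0.01), at 0.48 for mitosis, 0.32 for replication and 0.18 for the G1 cyclins, and 35 of 35 genes were positive, against 52.8% of all genes. In 34 of 35 each of the 3 cultures was higher with TTX, against 25.5%. Limma with groups alone called 0 of the 35 and 0 of all 12073 genes, with 8 of the 35 and 447 of all genes (3.7%) at an unadjusted p under 0.05. Paired limma also called 0 of the 35, against 0.514% of all genes, of which 0.0745% were higher. The lowest adjusted p was 0.052, for Rrm2 (log2 0.43, SE 0.06), followed by Tpx2 (log2 0.49, SE 0.07, adjusted p = 0.0527). In that fit 31 of the 35 had an unadjusted p under 0.05, against 18.2% of all genes. Culture as a random block called 9 of the 35, against 0.712% of all genes that were called higher, among them Nusap1 (log2 0.59) and Kif23 (log2 0.58), the genes with the largest changes. Without wild-type culture 1, whose libraries enter only the shared estimate of the spread, paired limma called 6 of the 35. In that fit 145 of all genes were called, against 62 with every culture. In 13 of 35 genes every TTX library lay above every untreated library, which held for 3.88% of all genes. They were 11 mitosis genes and Mcm2 and Mcm6.

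In wild-type cultures the median change was 0.30 (all genes 0.02), at 0.36 for mitosis, 0.22 for replication and 0.05 for the G1 cyclins, and 34 of 35 were positive, against 54.2% of all genes. In 28 of 35 each of the 3 cultures was higher with TTX, against 22.2%. Groups alone called 0 of the 35, against 0.0331% of all genes, with 2 of the 35, Plk1 and Mcm6, and 682 of all genes (5.65%) at an unadjusted p under 0.05. Paired limma called 2 of the 35, against 3.18% of all genes, of which 0.845% were higher. These were Rrm2 (log2 0.52, SE 0.06, adjusted p = 0.0222) and Tpx2 (log2 0.40, SE 0.07, adjusted p = 0.0421). Leaving out any 1 culture ended both calls, while calls over all genes went from 384 to between 11 and 58. Culture as a random block called 6 of the 35, against 1.85% of all genes that were called higher. Every TTX library exceeded every untreated library for 5 of the 35, namely Plk1, Nusap1, Mcm2, Mcm3 and Mcm6, against 4.94% of all genes. Leaving out a single library, which breaks its pair, moved the median to 0.11 without the second untreated library and to 0.41 without the third, while without both libraries of culture 3 it was 0.30. The largest TTX change in wild-type was that of Mki67 (log2 0.54, SE 0.13, adjusted p = 0.0754).

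The TTX change was larger in knockdown than in wild-type for 32 of 35 genes, against 48.4% of all genes, with a median difference of 0.10 (all genes -0.01). By culture, the median TTX change of the 35 was 0.45, 0.33 and 0.43 in knockdown. In wild-type cultures it was 0.19, 0.39 and 0.27, so cultures of the genotypes overlapped. No gene passed the test of the difference between genotypes. Limma called 0 of the 35 and 0 of all genes, both with groups alone and in paired limma, where 53 (0.439%) and 455 (3.77%) of all genes and 0 of the 35 had an unadjusted p under 0.05. The smallest paired p values were those of Kif20a (log2 difference 0.23, SE 0.10) and Ccnd1 (0.25, SE 0.11), both with an adjusted p of 0.974. With groups alone they were those of Mcm4 (0.19, SE 0.18) and Ccnd1 (SE 0.24), both with an adjusted p of 1.00. Differences below 0 were those of Rrm2 (-0.09, SE 0.09), Mcm6 (-0.06, SE 0.11) and Mki67 (-0.05, SE 0.18). Leaving out the third knockdown TTX library, which breaks its pair and lets the level of its culture enter, gave a median difference of -0.01 for the 35.

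Knockdown against wild-type gave no called gene among the 35. In TTX libraries the median log2 difference was 0.22 (all genes -0.0032), and 29 of 35 were positive, against 49.6% of all genes. In untreated libraries it was 0.05 (all genes 0.01), and 25 of 35 were positive, against 51.6%. Limma with groups alone called 0 of the 35 and 0 of all genes in either treatment, with 2 of the 35 and 986 of all genes (8.17%) with TTX, and 0 of the 35 and 736 of all genes (6.1%) untreated, at an unadjusted p under 0.05. Mcm4 had the largest difference relative to its error with TTX, at 1021, 1063 and 1278 in knockdown, against 840.4, 944 and 803 in wild-type libraries (log2 0.37, SE 0.12, adjusted p = 0.582). Its groups did not overlap with TTX, nor untreated, where the log2 difference was 0.18 (SE 0.12, adjusted p = 0.801). Nusap1 had 969, 1125 and 1487 in knockdown TTX libraries, against 759, 792 and 901 in wild-type TTX libraries (log2 0.53, SE 0.21, adjusted p = 0.594). With TTX the groups of Nusap1, Mcm2 and Mcm4 did not overlap, against 6.39% of all genes that were higher in this way, and untreated only Mcm4 did so, against 4.94%. Among negative differences with TTX, Aurkb (log2 -1.04, SE 1.21) and Bub1 (log2 -0.08, SE 0.20) had the smallest p. Untreated they were Bub1, at -0.34 (SE 0.20, adjusted p = 0.797), and Ccnd1, at -0.19 (SE 0.17, adjusted p = 0.837). Rrm2 had the smallest p among positive differences untreated (log2 0.45, SE 0.29, adjusted p = 0.797).

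Over both treatments the median of the 35 was 0.14 (all genes 0.0009), with 26 of 35 positive against 50.1% of all genes, at 0.20 for mitosis, 0.16 for replication and 0.01 for the G1 cyclins. Groups alone called 0 of the 35, against 0.0248% of all genes, with 2 of the 35 and 16.8% of all genes at an unadjusted p under 0.05. In 0 of the 35 did all 6 knockdown libraries lie above all 6 wild-type libraries, against 0.845% of all genes. Mcm4 had the lowest adjusted p, 0.182 (log2 0.28, SE 0.09), followed by Nusap1 at 0.217 (log2 0.42, SE 0.15). Averaged by culture, so that 3 knockdown cultures were set against 3 wild-type cultures, both had an adjusted p of 0.773. Wild-type culture 3 bore on these medians. Without its libraries the median was 0.32 with TTX, 0.22 untreated and 0.25 over both treatments, with 0 of the 35 called.

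**Figure D4:**
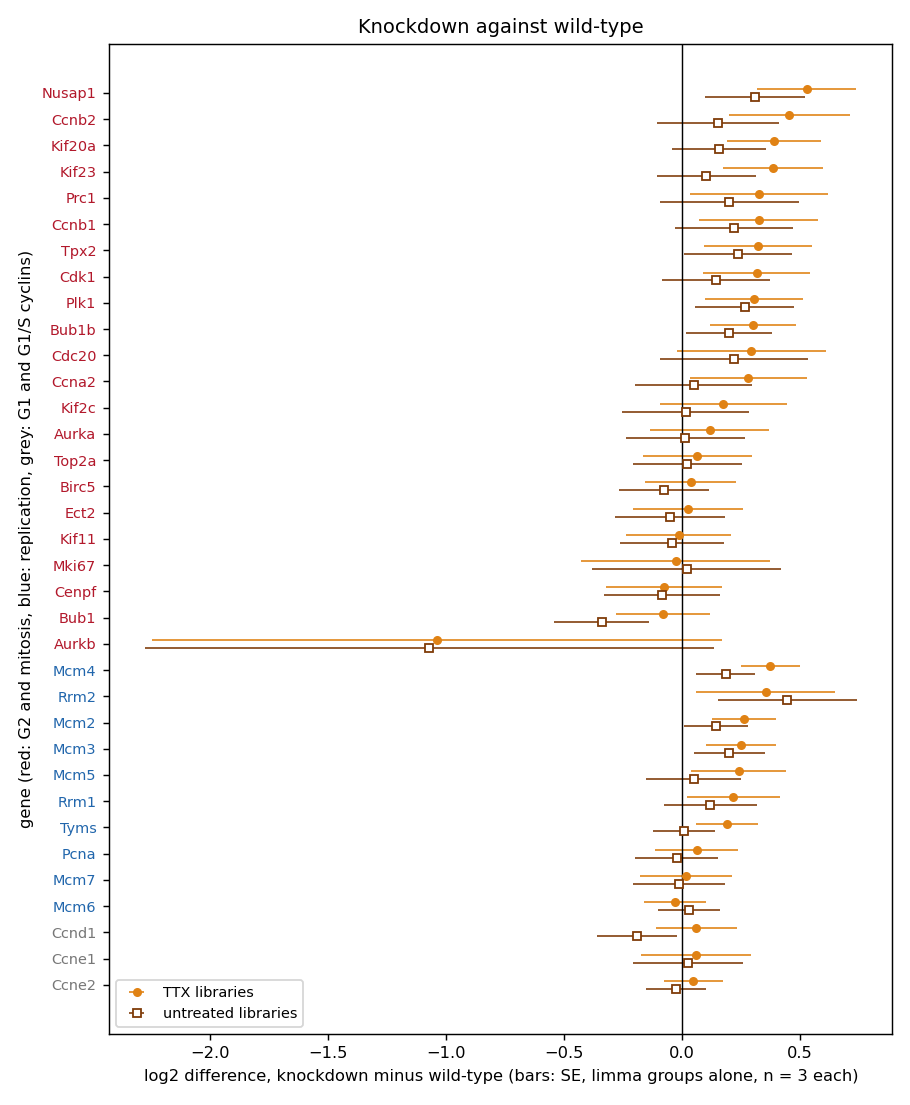
Log2 difference of each gene between knockdown and wild-type libraries with TTX (filled circles) and untreated (open squares), with bars of 1 SE from limma with groups alone. Most mitosis and replication genes lie right of 0 with TTX and nearer 0 untreated, and Aurkb, for which wild-type culture 3 stood apart, has the widest bars.

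Aurkb stood apart in wild-type culture 3. It had 9336 read equivalents in the TTX library and 6372 in the untreated library of that culture, against 333 to 789 in the other 10 libraries, or 17.1 and 11.7 times their median of 546. Aurka, its relative at the spindle poles, had 484 and 394 there, within the range of the other libraries. Of the genes tested, 62 exceeded their highest other library by over 5 times in both libraries of this culture, 25 of them by more than Aurkb. The other 5 cultures had 0 such genes each. Genes of motile cilia were among the 62, such as Dnah1, a dynein motor chain, at 1484 with TTX and 877 untreated, against 25.4 to 79.3 in the other libraries. A list of such genes made after this was seen summed, over its 9 measured genes, to 6899 with TTX and 4899 untreated in wild-type culture 3, against 988 to 1537 in the other libraries. The sum does not show each gene, and their spread differed. With groups alone the SE of the TTX change in wild-type was 0.29 for Ccdc39 and 1.66 for Ak7. Of these 9 genes 1 was called higher with TTX in paired limma (median log2 0.25). Their part in the Aurkb values was not tested. Over both treatments Aurkb had a log2 difference of -1.05 between knockdown and wild-type (SE 0.85, adjusted p = 0.542), and of 0.30 without wild-type culture 3. The TTX change of Aurkb was 0.48 with and 0.45 without that culture.

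**Figure D5:**
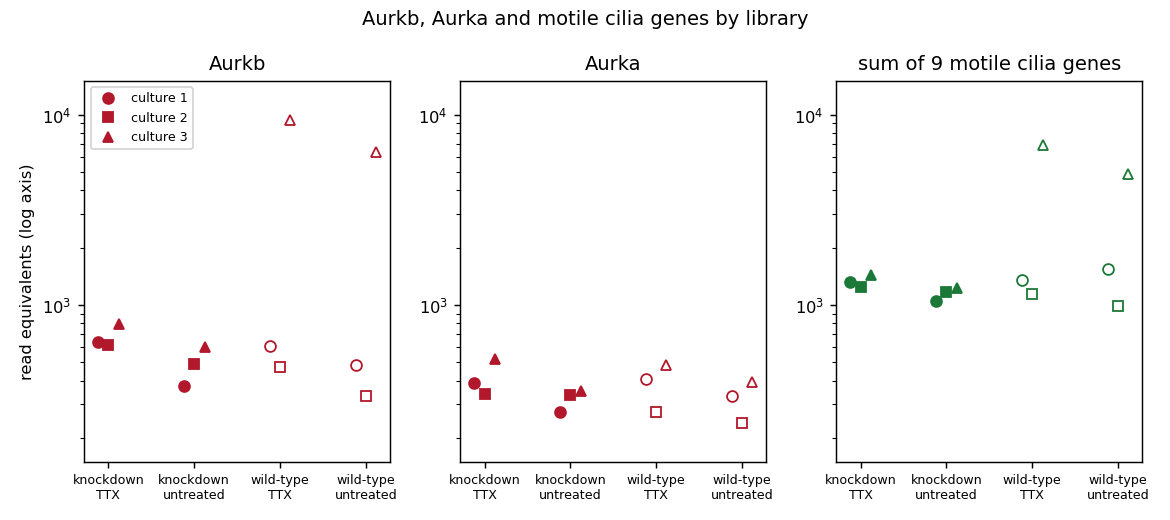
Levels of Aurkb, Aurka and the summed motile cilia genes by library on a log axis, with a symbol for each culture number (filled, knockdown; open, wild-type). Both libraries of wild-type culture 3 lie far above the rest for Aurkb and for the sum of the cilia genes, and within the rest for Aurka.

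Other cell cycle genes, taken from lists chosen by function, also had mostly positive changes with TTX. Of 18 measured genes of kinetochore, condensin and spindle checkpoint 18 were positive (median log2 0.31), and paired limma called 9 higher and 0 lower. Over all genes tested 55.5% were positive and 5.47% were called higher in that fit, which is the background for each list here. They included Nuf2 (log2 0.48, SE 0.06, adjusted p = 0.00876), a subunit of the NDC80 complex, Cenpa (0.47, SE 0.07), the histone of centromeres, and Espl1 (0.47, SE 0.08), the protease separase. Of 17 origin licensing and firing genes 4 were called higher (median 0.20), among them Gins2 (0.40, SE 0.07) and Cdc45 (0.34, SE 0.07), which complete the helicase with the MCM ring. Of 18 genes of polymerases and clamp loading 4 were called higher (median 0.21), including Fen1 (0.30, SE 0.07), which trims Okazaki fragments. Among 11 E2F, DREAM and FOXM1 factors 4 were called higher (median 0.16), with Foxm1 (0.40, SE 0.06, adjusted p = 0.0138) and Mybl2 (0.31, SE 0.05), both activators of mitotic genes. Of 8 other G1 cyclins and kinases 3 were called higher (median 0.23), Cdk6 (0.48, SE 0.07), Ccnd2 (0.29, SE 0.05) and the phosphatase Cdc25a (0.25, SE 0.05). Among 8 inhibitors 2 were called higher (median 0.18), Cdkn2c (0.45, SE 0.05, adjusted p = 0.00811), which inhibits Cdk4 and Cdk6, and Cdkn1a (0.32, SE 0.08, adjusted p = 0.0485), the inhibitor p21. None of the members of these lists was called lower, and with groups alone none was called in either direction.

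Markers of the cell types in the cultures were also compared between TTX and untreated libraries, and most neuron markers were called lower. All 12 neuron markers had a negative change (median log2 -0.52), and paired limma called 8 of them lower, against 7.54% of all genes, for example Nefl (-0.98, SE 0.10), a neurofilament, and Gad1 (-0.99, SE 0.13), which makes GABA. The summed neuron markers were 54782 to 87528 with TTX, against 74377 to 111628 untreated, in knockdown, and 55740 to 59778 with TTX, against 67229 to 77802 untreated, in wild-type. Of 9 neural progenitor markers 9 were positive (median 0.22). Summed progenitor markers were 35647 to 58296 with TTX, against 28517 to 46716 untreated, in knockdown, and 42602 to 51342 with TTX, against 31974 to 41842 untreated, in wild-type. Of 10 astrocyte markers 9 were positive (median 0.19, 0 called), and of 10 oligodendrocyte lineage markers 8 were (median 0.09), with 1 called, Olig1 (0.30, SE 0.07). Summed astrocyte markers were 155536 to 287734 with TTX, against 147092 to 253284 untreated, in knockdown, and 186810 to 239533 with TTX, against 146844 to 217026 untreated, in wild-type. The highest of these sums was in the third knockdown TTX library, which also held the highest level of most cell cycle genes. Microglial markers were near 0 (summed 12.5 to 155 over libraries, 3 of 10 tested, median 0.56, 0 called), and 6 of 11 vascular and fibroblast markers were tested (median 0.29, 0 called). None of these markers was at 0 in all libraries. Between knockdown and wild-type over both treatments, the oligodendrocyte lineage list had a median of -1.71 and the neuron list of 0.36, with 0 genes called in either. The part of these shifts in the cell cycle values was not tested.

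The authors' deposited tables gave a z score and a p per gene, whose p matched the one-tailed normal probability of the z for absolute z over 0.5. Since either direction is counted, 0.05 on such a p is a looser threshold than in the 2-sided limma tests. Counts from these tables and from limma are therefore not on the same footing. For knockdown TTX against knockdown untreated the authors' deposited table listed 18 of the 35 genes as higher at p under 0.05, against 2.96% of its entries in either direction and 0.846% higher. Kif23 led in the authors' deposited table (z 3.78, one-tailed p = 7.9e-05). It alone stayed under 0.05 after Benjamini-Hochberg adjustment of the one-tailed p, at 0.0337, and adjustment of a 2-sided p was not made. For wild-type TTX against wild-type untreated the authors' deposited table listed Mcm3 and Mcm6 as higher, against 4.05% of entries in either direction and 0.964% higher. For knockdown TTX against wild-type TTX the authors' deposited table listed Nusap1 and Mcm4 as higher, against 6.43% of entries in either direction and 3.01% higher, and untreated it listed 0, against 3.75% and 1.94%. In the authors' deposited table of 6 knockdown against 6 wild-type libraries Mcm4 (z 2.745) and Nusap1 (z 2.035) were higher and Aurkb (z -2.385) was lower. Of its entries 15.5% were under 0.05 in either direction and 7.21% were higher. That table includes wild-type culture 3, and the log2 difference of Aurkb in limma went from -1.05 to 0.30 without that culture. The 5 tables share libraries, so their lists are not independent.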

How the data were processed

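RNA-seq was done on total RNA depleted of ribosomal RNA with Ribo-Zero and made into strand-marked (dUTP) single-end libraries, per the labels' protocols. The submitters' processing notes name GSNAP, DESeq, DESeq2 and the rn6 build. The sources used here do not say whether counting used strand, so overlapping antisense genes cannot be told apart.

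The deposited signal values are base coverage summed per RefSeq transcript, divided by the authors' size factor for each library, as the steps in the values show. The table holds 18905 entries, 18697 of them distinct. Dividing by a read length of 42 nt gave read equivalents. The authors' deposited comparison tables hold a z score and a p-value per entry.

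The filter asked for 10 read equivalents or more in 3 or more libraries; it passed 12073 genes and dropped 5266. Log2(read equivalents + 1) entered linear models in limma 3.58.1 (R 4.3.3), and p-values were adjusted by Benjamini-Hochberg over all 12073 genes at a threshold of 0.05. Fold changes on this scale understate changes of low genes. The design took the 4 groups alone (8 residual degrees of freedom). Culture as a fixed term (4 degrees), culture as a random block (estimated correlation 0.714) and, for knockdown, culture averages were alternatives. The labels number replicates and name no culture. The pairing within a genotype was taken from the data: deviations from the group means correlated at 0.782, 0.695 and 0.767 between TTX and untreated libraries of knockdown replicates 1, 2 and 3, and at 0.438, 0.613 and 0.849 in wild-type. Between genotypes all same-numbered correlations were below 0, so cultures were kept apart by genotype. Where nothing says that libraries came from separate animals, p-values measure only the spread between these libraries. The fits with groups alone and with culture as a fixed term were run on simulated data. No simulated results are given here, so they do not bear on the calls reported above.

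The 36 genes and all gene lists were chosen with earlier results of these data known. The values of every library are given for a chosen set of members, for members called in a fit and for those with the 2 smallest p in each direction. The other alternatives changed the pseudocount, filter, scaling or entries, or left out a library or culture. Promoter windows came from RefSeq on GRCr8, and no coordinates of the authors' build were used. The calls for single neural progenitor markers are not reported here.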

Additional observations from a re-analysis of the deposited data

Results flagged for a closer look

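Ccnd1, the D cyclin of G1, had TTX changes of opposite sign in the 2 genotypes. Its level was higher with TTX in 3 of 3 knockdown cultures and lower in 3 of 3 wild-type cultures. This pattern or its reverse was held by 1.53% of all genes tested. The log2 change in knockdown minus that in wild-type was 0.25, with an SE of 0.11 in paired limma and 0.24 with groups alone. The difference did not pass the test, with an adjusted p of 0.974 in paired limma and 1.00 with groups alone. Without wild-type culture 3 it was 0.27.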

How the results depend on the processing

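The counts of genes called with TTX depended on whether the pairing of libraries entered the model. With groups alone 0 of the 35 were called in any comparison. With the replicate block, culture as a fixed term called 26 over both genotypes, 2 in wild-type and 0 in knockdown, and culture as a random block called 27, 6 and 9. With that block, leaving out 1 culture gave 1 to 25 over both genotypes and 0 to 6 in knockdown, and with groups alone leaving out 1 library gave 0. Over all genes, the fits with the block and 1 culture left out called 140 to 1553 over both genotypes and 0 to 145 in knockdown. Leaving out 1 library moved the median log2 change of the 35 between 0.11 and 0.41 with TTX in wild-type, between 0.31 and 0.53 in knockdown, and between -0.0144 and 0.26 for the difference between genotypes. Replication minus mitosis moved between -0.21 and 0.0347 in wild-type, between -0.24 and -0.067 in knockdown, and between -0.19 and 0.15 for the difference between genotypes. Leaving out 1 library also breaks its pair, and the cause of these shifts was not tested. Several of these ranges span 0, as do those of the knockdown median in untreated libraries (-0.08 to 0.22) and of replication minus mitosis in each knockdown comparison. Over their alternatives the TTX change also changed sign for Aurkb (-0.21 to 1.14), Ccnd1 (-0.018 to 0.11) and Ccne1 (-0.07 to 0.20), as did the knockdown difference of Aurkb (-1.45 to 0.30). The other alternatives tried, pseudocounts of 0.5 and 5, no filter, a filter of 50 read equivalents, median-ratio and quantile scaling, the values as deposited, means over entries and a robust trended prior, left the counts at 0 and moved the medians by less than the spread between replicates. Removing wild-type culture 3, chosen after seeing the data, also left the counts at 0. Levels depend on coverage, so long transcripts carry more signal.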
